A study of Mus musculus with 36 samples.

Results

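The CXC chemokines described here are 10 genes, Cxcl1, Cxcl2, Cxcl3, Cxcl5, Cxcl9, Cxcl10, Cxcl12, Cxcl13, Cxcl14 and Cxcl15. They were chosen by gene symbol, as rows found in both count tables. The rule uses no measured value, but the list was drawn up with earlier results of these data known. They are 10 of 18116 genes in the table of female mice and 10 of 18291 genes in the table of male mice. All 10 are protein coding. On GRCm38, 8 of them lie on chromosome 5. Cxcl5 (chr5:90759360-90761624), Cxcl3 (chr5:90786103-90789600), Cxcl15 (chr5:90794534-90803067), Cxcl1 (chr5:90891241-90893115) and Cxcl2 (chr5:90903871-90905938) follow each other on the plus strand. Cxcl9 (chr5:92321347-92328079) and Cxcl10 (chr5:92346638-92348889) are neighbours on the minus strand, and Cxcl13 (chr5:95956951-95961068) lies further along on the plus strand. Cxcl12 (chr6:117168535-117181367, plus strand) and Cxcl14 (chr13:56288643-56296551, minus strand) stand apart from that cluster.

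Chemokines are small secreted proteins that draw leukocytes along a gradient by binding receptors with 7 membrane-spanning segments. CXC chemokines that carry a Glu-Leu-Arg motif ahead of the paired cysteines, among them the products of Cxcl1, Cxcl2, Cxcl3, Cxcl5 and Cxcl15 (lungkine), act mainly on neutrophils, largely through the receptor Cxcr2. The products of Cxcl9 and Cxcl10 lack that motif, are induced by interferon and draw T cells and NK cells through Cxcr3. Cxcl12 is made constantly by stromal cells and binds Cxcr4, Cxcl13 draws B cells through Cxcr5, and Cxcl14 is made constantly by many epithelial tissues.

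The data are RNA-seq counts from the left lung of 36 C57BL/6 mice, 18 of each sex, with 3 mice per sex in each of 6 groups. The groups received saline, crude oil of the type MC252, 1 of the dispersants Corexit 9500 and Corexit 9527, or a mixture of oil and 1 dispersant (named 9500+oil and 9527+oil). Mice were 8 weeks old at the first dose, received 50 µL into the airways at days 0, 7 and 13, and gave their lungs at day 14. The labels give 1 strength for the treatments, 0.1 of the water-accommodated fraction (WAF). No group carried a transgene or deletion, and the saline mice received the vehicle on the same days. The labels describe a water-accommodated fraction given by intratracheal instillation, whereas the methods describe a saline-accommodated fraction given by oropharyngeal aspiration. The submitters state that the sexes were treated separately, and they were counted in separate tables, so that sex cannot be told apart from the round of treatment. A level in CPM is a gene's count scaled to a common library size by the TMM method, and each mouse is named by its number within its sex.

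Total counts per mouse ran from 17501180 to 30011557. In 4 female libraries (saline mouse 3, oil mouse 6, Corexit 9527 mouse 11 and 9500+oil mouse 14) mitochondrial genes took 20.67% to 45.09% of counts, against 6.161% to 11.34% in the other female and 5.27% to 7.676% in the male libraries. TMM scaling gave these libraries small effective sizes, so that a count stands for more CPM there, and the main values that move with them are also given without them. The libraries carried lung markers, with the 9 alveolar type 2 cell markers summing to 9343 to 27080 CPM per mouse. Heart muscle markers, which a dissected lung can carry, summed to 146 to 625 CPM and thymus markers to at most 0.653 CPM. In bulk lung, fewer cells of a type and less RNA per cell cannot be told apart.

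The 250 bases before the gene start, taken from RefSeq on GRCm38.p6, were searched on both strands for letters resembling the binding sites of NF-kB (GGGANNTTC) and of interferon regulatory factors (GAAANNGAA). The table held an entry for 9 of the 10 genes, all except Cxcl5. The stretches around the matches of the 5 inducible chemokines are shown. Several of these genes, such as Cxcl1 and Cxcl10, were correlated across mice in both sexes. In male mice Cxcl15, which held neither motif, was also correlated with Cxcl1 and Cxcl10. Whether the letters have a part in these correlations was not tested. Capitals mark the matches. In Cxcl1, Cxcl2 and Cxcl3 each marked run holds 2 overlapping matches of the first motif, 1 per strand, and the 11 capital letters are the same in the 3 genes.
Cxcl1, chr5:90891149-90891209, plus strand: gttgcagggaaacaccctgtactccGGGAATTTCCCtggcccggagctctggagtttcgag
Cxcl2, chr5:90903777-90903837, plus strand: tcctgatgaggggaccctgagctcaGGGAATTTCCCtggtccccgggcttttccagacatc
Cxcl3, chr5:90786003-90786063, plus strand: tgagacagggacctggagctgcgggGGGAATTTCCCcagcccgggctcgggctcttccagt
Cxcl9, chr5:92328200-92328279, minus strand: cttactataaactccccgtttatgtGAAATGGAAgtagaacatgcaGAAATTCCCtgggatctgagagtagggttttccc
Cxcl10, chr5:92349015-92349127, minus strand: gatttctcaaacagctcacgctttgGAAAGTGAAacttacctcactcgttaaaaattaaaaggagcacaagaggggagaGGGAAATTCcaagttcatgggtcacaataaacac

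In Cxcl9 and Cxcl10 the first marked run is the interferon regulatory factor motif and the second the NF-kB motif. Cxcl14 held GAAANNGAA and no GGGANNTTC, and neither motif was found in this window of Cxcl12, Cxcl13 or Cxcl15. Of 32851 promoters of the same length, 3.23% held GGGANNTTC and 7.129% GAAANNGAA. A match is a description of the letters and not a bound site.

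Cxcl15 was by far the most abundant of the chemokines in these lungs. Its median level per length was 595 CPM per kb of exon in female and 636 in male mice. Cxcl14 followed with 55.1 and 47.4 CPM per kb and Cxcl12 with 23.9 and 28.4. Cxcl13 had a median of 3.29 CPM per kb in female and 2.28 in male mice. Cxcl9 stood at 1.36 and 0.403, Cxcl10 at 1.09 and 0.791 and Cxcl1 at 0.422 and 0.529 CPM per kb. Cxcl2, Cxcl3 and Cxcl5 were near the limit of detection, at 0.0482 to 0.228 CPM per kb. Cxcl2 had 0 counts in 8 of 18 female and 3 of 18 male mice, Cxcl3 in 3 and 2, and Cxcl5 in 3 and 3. A count of 0 allows up to 3 counts, which is 0.0893 to 0.352 CPM in the female and 0.0999 to 0.168 CPM in the male libraries, for counting error only. Genes at such levels could be compared only coarsely.

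**Figure D1:**
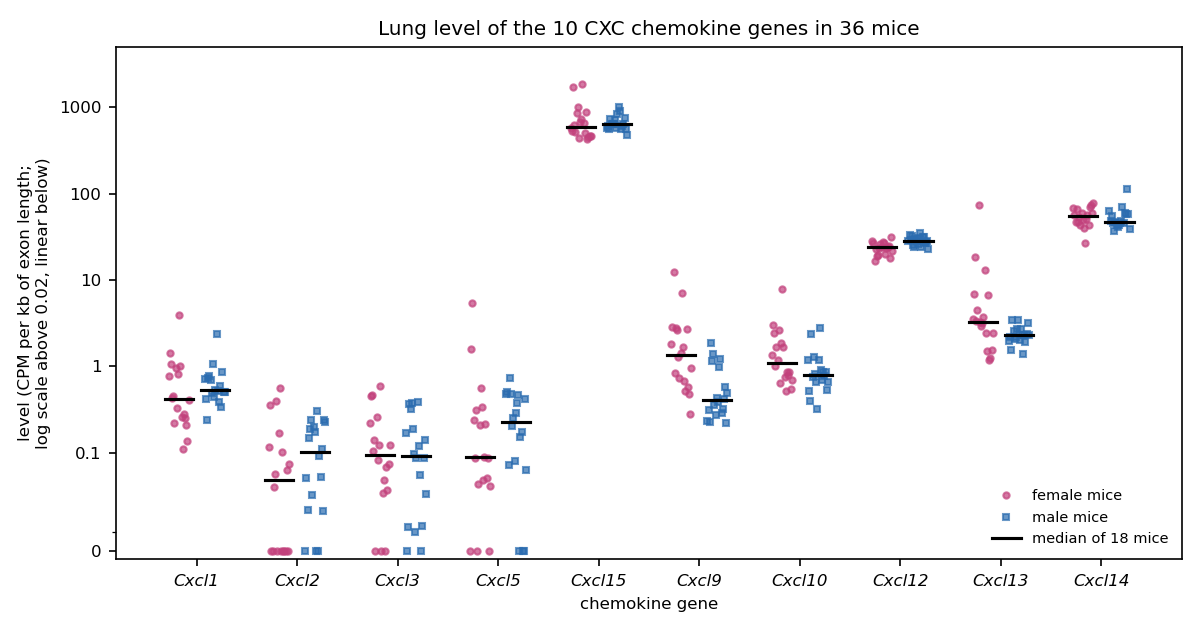
Level of each chemokine gene in CPM per kb of exon length (vertical axis, log scale above 0.02 and linear below) in 18 female (circles) and 18 male (squares) mice, with the median as a bar. Cxcl15 lies above all other members in both sexes, and Cxcl2, Cxcl3 and Cxcl5 reach 0 in some mice.

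Between mice Cxcl12 varied least in both sexes. The highest level of Cxcl12 was 1.91 times the lowest among female and 1.51 times among male mice. For Cxcl9 this ratio was 43.3 among female and 8.62 among male mice, and for Cxcl1 35.3 and 9.92. Cxcl13 ranged over 62.2 times among female mice, from 1.38 CPM to 85.7 CPM in oil mouse 6, and over only 2.54 times among male mice. Without the 4 libraries high in mitochondrial counts the highest female Cxcl13 level was 7.93 CPM.

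**Figure D2:**
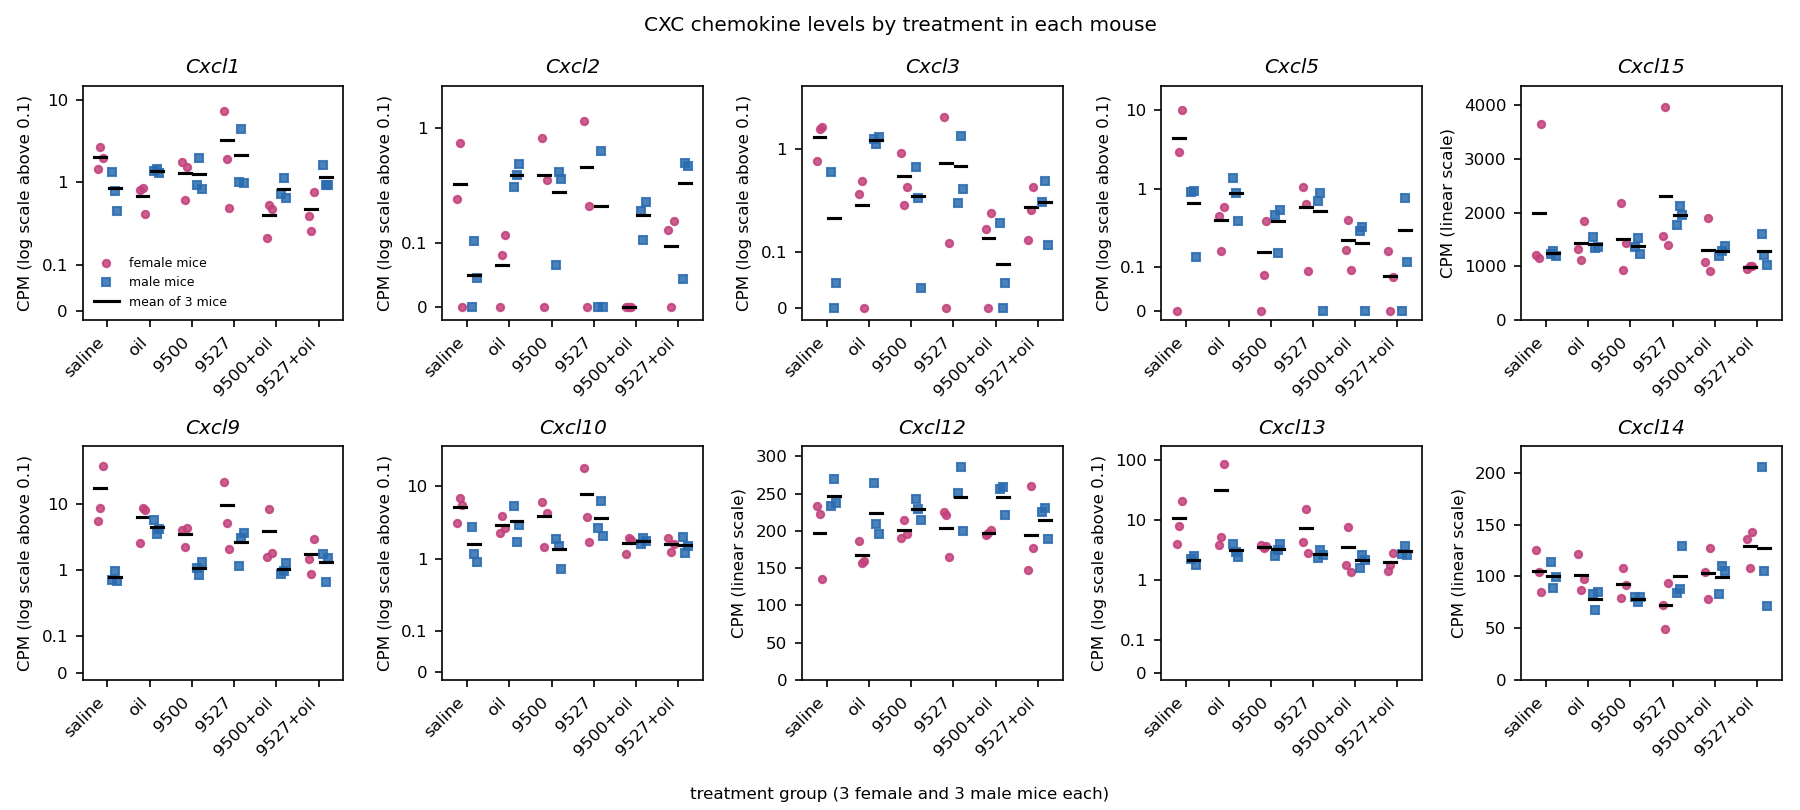
CPM of each chemokine (vertical axes, linear for Cxcl12, Cxcl14 and Cxcl15 and log scale above 0.1 for the others) in the 3 female (circles) and 3 male (squares) mice of each treatment, with the group mean as a bar. In male mice Cxcl9 is highest with oil (3.52 to 5.69 CPM) and Cxcl15 with Corexit 9527 (1767 to 2120 CPM), whereas in female mice both have a high saline mouse (37.0 and 3642 CPM).

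Each treatment was compared with the saline mice of the same sex, to ask whether oil, a dispersant or a mixture altered the lung's chemokine transcripts. All comparisons with saline share the 3 saline mice of that sex. In male mice Cxcl9 was the only chemokine whose level differed among the 6 groups in edgeR's quasi-likelihood test (adjusted p = 0.045). Of all genes, 0.135% passed this test, and 1 of 9 chemokines tested did. Cxcl9, which draws T cells and NK cells, stood at 0.696, 0.945 and 0.677 CPM in the male saline mice. With oil it stood at 5.69, 3.52 and 4.16 CPM, and with Corexit 9527 at 1.15, 2.97 and 3.62 CPM. Every oil mouse and every Corexit 9527 mouse lay above every saline mouse. The other male groups lay near saline, at 1.07, 0.828 and 1.29 CPM with Corexit 9500 and 0.861, 0.964 and 1.28 CPM with 9500+oil. With 9527+oil the levels were 1.74, 0.660 and 1.49 CPM. The order of the group means was oil, Corexit 9527, 9527+oil, Corexit 9500, 9500+oil and saline, and each group overlapped with its neighbour in that order. The call was lost when any of 13 of the 18 mice was left out, and it was lost under voom. DESeq2's likelihood ratio test called Cxcl9 and Cxcl15. The 0.135% of all genes above holds for edgeR only.

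Against saline alone, the log2 fold change of Cxcl9 in male oil mice was 2.52 (SE 0.318, 5.73-fold), with an edgeR adjusted p of 0.106 over all genes. In male Corexit 9527 mice it was 1.74 (SE 0.482, 3.33-fold, edgeR adjusted p = 0.172). In the latter mice the 13 macrophage markers found summed to 1138 to 1914 CPM against 864 to 985 CPM with saline, the 14 neutrophil markers to 283 to 532 against 431 to 489 CPM, the 11 fibroblast and mesothelial markers to 3389 to 3902 against 2814 to 3098 CPM the 8 endothelial markers to 3795 to 4252 against 4646 to 5186 CPM and the 9 airway secretory and ciliated cell markers to 15790 to 19160 against 20780 to 25690 CPM. Their part in the Cxcl9 level was not tested. Over all genes, 0.00671% passed the adjusted threshold of 0.05 in male oil mice, 0.00662% with Corexit 9500, 0.114% with Corexit 9527, 0% for 9500+oil and 0.00669% for 9527+oil, and no chemokine did in any of these 5 comparisons. DESeq2's test called Cxcl9 with oil (adjusted p = 2.5e-07) and both Cxcl9 and Cxcl15 with Corexit 9527. It called 186 of 14903 genes with oil and 587 of 14908 with Corexit 9527. limma's voom called no chemokine with oil and Cxcl15 with Corexit 9527, beside 4 of 14914 and 111 of 14919 genes.

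The interferon-inducible partner of Cxcl9, Cxcl10, showed more spread. It stood at 2.69, 1.16 and 0.903 CPM in male saline mice, 5.34, 1.68 and 2.86 CPM with oil and 2.65, 6.19 and 2.02 CPM with Corexit 9527. These groups overlapped with saline. With the other treatments the male group means were 1.34 to 1.75 CPM, against 1.58 CPM with saline.

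Among the neutrophil-attracting chemokines of male mice, Cxcl2, Cxcl3 and Cxcl15 lay wholly above saline with oil, and Cxcl15 is described below. Cxcl3 stood at 1.27, 1.12 and 1.33 CPM (20 to 38 counts) with oil, against 0.597, 0 and 0.0452 CPM (0 to 12 counts) with saline. Its log2 fold change was 2.51 (SE 0.871), with an edgeR adjusted p of 0.490, so the difference did not pass, and it was 5.38 without saline mouse 1. Cxcl2 had 6, 7 and 14 counts with oil against 0, 2 and 1 with saline and was too low for the filter on low counts. Cxcl1 stood at 1.37, 1.45 and 1.29 CPM with oil and 1.34, 0.787 and 0.452 CPM with saline, and the groups overlapped. Cxcl5 was at 1.37, 0.893 and 0.384 CPM with oil and 0.895, 0.945 and 0.136 CPM with saline. At an unadjusted p of 0.05, 3 of 9 chemokines tested in male oil mice passed (Cxcl9, Cxcl3 and Cxcl14), where 8.21% of all genes did.

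Marker genes of several cell types moved beside these values. The 14 neutrophil markers summed to 552 to 1309 CPM in male oil mice against 431 to 489 CPM in male saline mice, and the 13 macrophage markers found to 1241 to 1422 against 864 to 985 CPM. The 12 T cell and NK cell markers summed to 155 to 173 CPM with oil and 117 to 174 CPM with saline. The 8 endothelial markers were lower, at 4417 to 4569 against 4646 to 5186 CPM, as were the 7 heart muscle markers, at 286 to 317 against 341 to 532 CPM. The part of these cells in the chemokine levels was not tested.

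Cxcl15, whose product lungkine is made by lung epithelium, stood higher in male mice given Corexit 9527 than in any other male group. It was at 1233, 1285 and 1199 CPM with saline and at 1767, 2120 and 1953 CPM with Corexit 9527, and the groups did not overlap. The log2 fold change was 0.65 (SE 0.105, 1.57-fold), and the edgeR adjusted p was 0.0558, which just misses the threshold. It passed with no filter on low counts, with at least 10 counts in every mouse, with all groups in 1 fit, without Corexit 9527 mouse 12, under voom and under DESeq2. Those of these settings that kept all mice called 70 to 587 genes, against 17 in the main fit. The other male group means lay between 1239 and 1418 CPM. Of these groups the oil mice also lay wholly above saline, at 1347 to 1543 CPM (log2 fold change 0.19, SE 0.0921, edgeR adjusted p = 0.660), and the others overlapped with it. In female mice Cxcl15 with Corexit 9527 overlapped with saline (log2 fold change 0.19, SE 0.734). The female 9527+oil mice lay wholly below saline, at 954 to 1001 against 1147 to 3642 CPM (log2 fold change -1.04, SE 0.534, edgeR adjusted p = 0.914). In the male Corexit 9527 mice, 9 of 9 alveolar type 2 cell markers were higher than in saline mice (median log2 fold change 0.30, against -0.01 for all genes). At an unadjusted p of 0.05, 4 of these 9 markers passed, where 13.7% of all genes did. Their summed level was 19820 to 27080 CPM against 21390 to 21600 CPM. The 9 airway secretory and ciliated cell markers summed to 15790 to 19160 CPM against 20780 to 25690 CPM. The part of either cell type was not tested.

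In male Corexit 9527 mice 2 of 8 chemokines passed an unadjusted p of 0.05, Cxcl15 and Cxcl9, where 13.7% of all genes did. With Corexit 9500 it was 1 of 8, Cxcl14 (6.35% of all genes). With 9500+oil it was 0 of 7 (9.22% of all genes) and with 9527+oil 0 of 8 (5.54% of all genes). Over the 6 male groups together 4 of 9 passed, Cxcl9, Cxcl15, Cxcl3 and Cxcl10, against 10.4% of all genes. With 1 mouse left out, the count with Corexit 9527 was 4 without Corexit 9527 mouse 12 and 3 without saline mouse 1. That with 9500+oil was 1 without saline mouse 3, and that with 9527+oil was 2 without mouse 17 and 1 without mouse 18. The count over the 6 groups was 2 without oil mouse 4 or 6, Corexit 9500 mouse 8 or 9500+oil mouse 15.

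**Figure D3:**
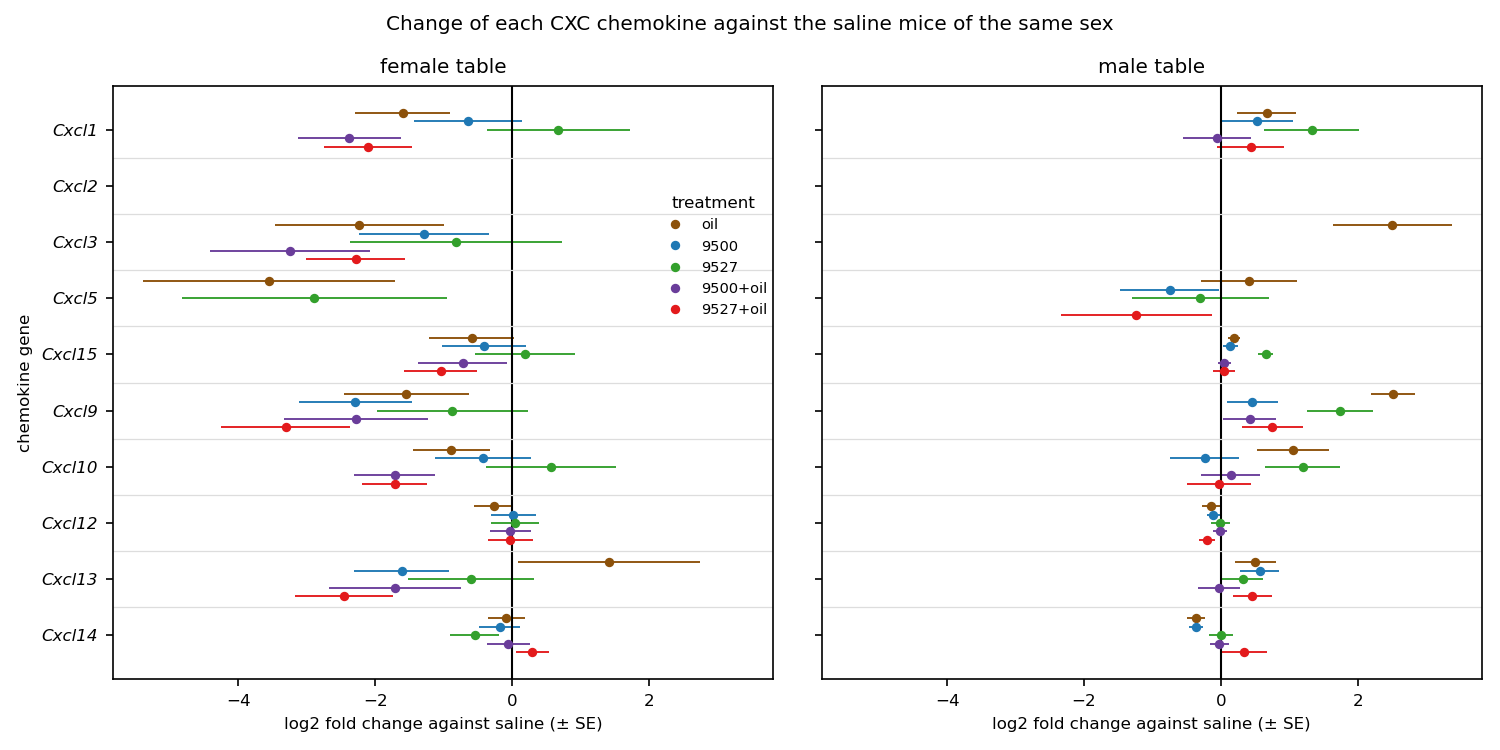
Log2 fold change against saline (horizontal axis, points with SE bars) of each chemokine with each of the 5 treatments, in female and male mice. A gene too low to be tested has no point. In female mice most points of Cxcl1, Cxcl3, Cxcl9 and Cxcl10 lie below 0, and in male mice most lie above it, with Cxcl9 in oil mice at 2.52.

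In female mice the inducible chemokines had lower means than in saline mice in most treated groups, above all with the mixtures, but none passed the adjusted threshold. The share of all genes passing it was 0% in each of the 5 comparisons with saline, and 0.0129% over the 6 female groups together. DESeq2 and voom called no chemokine there either. Cxcl1, a main neutrophil attractant, stood at 1.46, 2.66 and 1.99 CPM with saline. It was at 0.811, 0.858 and 0.411 CPM with oil, 0.209, 0.529 and 0.475 CPM with 9500+oil and 0.390, 0.257 and 0.772 CPM with 9527+oil. Each of these 3 groups lay wholly below saline. The log2 fold changes were -1.60 (SE 0.690), -2.38 (SE 0.752) and -2.10 (SE 0.639), with edgeR adjusted p values of 0.914 or more. In the female oil mice the airway secretory and ciliated cell markers lay wholly above saline, at 21250 to 26470 against 8290 to 20480 CPM, and their part in the levels of Cxcl1 and Cxcl3 was not tested.

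Cxcl3 had the same 3 female groups below saline. It stood at 0.771, 1.58 and 1.64 CPM with saline, 0.167, 0 and 0.237 CPM with 9500+oil and 0.130, 0.257 and 0.425 CPM with 9527+oil. With oil it stood at 0.365, 0.490 and 0 CPM. Its saline mice lay wholly above all 3 groups, at 14 counts or more. Cxcl2 had 6, 24 and 0 counts in female saline mice and 0 counts in all 3 female 9500+oil mice, and was not tested within female pairs of groups.

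Cxcl5 was decided by single mice. Its female saline levels were 0, 2.94 and 10.1 CPM, the last from the library with the largest mitochondrial share, and every other female group lay between 0 and 1.04 CPM. Over both sexes its log2 fold change was -3.02 with 9500+oil and -3.32 (SE 1.48) with 9527+oil, and neither passed (edgeR adjusted p of 0.837 or more). Without the 4 libraries high in mitochondrial counts these values were -2.41 and -2.49. The value with 9527+oil was -4.79 without male 9527+oil mouse 17 and -1.59 under voom.

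Cxcl9 in female saline mice was 5.52, 8.55 and 37.0 CPM, and the 37.0 CPM came from the same saline mouse 3. It was at 3.92, 2.21 and 4.32 CPM with Corexit 9500, 1.43, 0.855 and 2.90 CPM with 9527+oil and 1.55, 8.13 and 1.76 CPM with 9500+oil. The first 2 of these groups lay wholly below saline. The log2 fold change was -2.29 (SE 0.826) with Corexit 9500 and -3.31 (SE 0.937) with 9527+oil, and without saline mouse 3, as without the 4 libraries, these were -1.02 and -2.02. Cxcl10 stood at 3.09, 6.88 and 5.51 CPM with saline, 1.17 to 1.92 CPM with 9500+oil and 1.92, 1.24 and 1.58 CPM with 9527+oil. Both mixtures lay wholly below saline, with log2 fold changes of -1.71 (SE 0.596) and -1.71 (SE 0.476).

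At an unadjusted p of 0.05, 5 of 8 chemokines tested in female 9527+oil mice passed, all lower than in saline mice (Cxcl1, Cxcl3, Cxcl9, Cxcl10 and Cxcl13), where 1.1% of all genes did. With 9500+oil 3 of 8 passed (0.155% of all genes) and with Corexit 9500 1 of 8 (0.364%). With oil it was 0 of 9 (0.108%) and with Corexit 9527 0 of 9 (0.267%). Over the 6 female groups 5 of 10 passed, against 1.35% of all genes. These counts changed when 1 mouse was left out. The count with 9500+oil was 0 without saline mouse 2, mouse 13 or mouse 15 and 5 without mouse 14. That with Corexit 9500 was 0 without saline mouse 3 or any 1 treated mouse and 3 without saline mouse 1. The count with 9527+oil was 1 without mouse 17 and 2 without saline mouse 2 or mouse 16. With oil it was 1 without saline mouse 1 or 3, with Corexit 9527 1 without saline mouse 1, and over the 6 groups 3 without saline mouse 3, 9500+oil mouse 13 or 15 or 9527+oil mouse 16 or 17. When the 4 libraries high in mitochondrial counts were left out, 5 passed with 9500+oil, 6 with 9527+oil, 2 with oil and 0 with Corexit 9500. More of all genes passed then as well. It was 185 of 14963 genes with 9500+oil, 1865 of 15147 with 9527+oil, 144 of 15012 with oil and 248 of 15167 with Corexit 9500. These chemokines are not independent of each other, as the correlations across mice below show. In female 9527+oil mice the 13 macrophage markers summed to 620 to 683 CPM and in 9500+oil mice to 673 to 887 CPM, both wholly below the 930 to 1006 CPM of saline mice. In the 9527+oil mice the T cell and NK cell markers summed to 149 to 166 against 148 to 187 CPM. Their part in the chemokine levels was not tested.

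In female mice given Corexit 9527, 1 mouse stood out. Mouse 10 had the highest female level of Cxcl1 (7.38 CPM), Cxcl2 (1.16 CPM), Cxcl3 (2.08 CPM) and Cxcl10 (17.6 CPM), and 21.1 CPM of Cxcl9. The other mice of its group had 1.92 and 0.483 CPM of Cxcl1 and 3.73 and 1.69 CPM of Cxcl10. Its library was not among those high in mitochondrial counts. Among male mice the same set of genes peaked in 1 Corexit 9527 mouse, number 11, with 4.48 CPM of Cxcl1, 0.633 CPM of Cxcl2, 1.36 CPM of Cxcl3 and 6.19 CPM of Cxcl10. The Corexit 9527 means of these genes therefore rested largely on 1 mouse in each sex. The macrophage markers summed to 2475 CPM in female mouse 10 and to 1914 CPM in male mouse 11, the highest sum of each sex. In the female Corexit 9527 mice they summed to 1415 to 2475 CPM against 930 to 1006 CPM with saline, and the fibroblast and mesothelial markers to 2598 to 3163 against 2143 to 2483 CPM. Their part in these levels was not tested.

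Cxcl12 differed little between groups. Its group means were 168 to 204 CPM in female and 215 to 247 CPM in male mice, and its log2 fold change with 9527+oil in male mice was -0.20 (SE 0.113, edgeR adjusted p = 0.891). Cxcl14 stood at 114, 88.8 and 99.7 CPM in male saline mice. It was at 83.3, 67.2 and 85.1 CPM with oil and at 80.2, 75.2 and 80.2 CPM with Corexit 9500, both wholly below saline. The log2 fold changes were -0.37 (SE 0.128) and -0.36 (SE 0.105), with edgeR adjusted p values of 0.492 and 0.755. In the Corexit 9500 mice, as in the oil mice, the endothelial markers also lay wholly below saline, at 4217 to 4502 against 4646 to 5186 CPM, and their part was not tested. In 9527+oil mice Cxcl14 ranged from 71.8 to 206 CPM, the widest spread of any male group.

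Cxcl13, which guides B cells into follicles, stood between 1.58 and 4.01 CPM in all 18 male mice. There the Corexit 9500 and 9527+oil mice lay wholly above saline, with log2 fold changes of 0.57 (SE 0.281) and 0.46 (SE 0.289) that did not pass. In female mice it was 4.02, 7.93 and 21.0 CPM with saline, and 1.43 to 2.82 CPM with 9527+oil. That group lay wholly below saline (log2 fold change -2.45, SE 0.719, edgeR adjusted p = 0.914, and -1.57 without the 4 libraries high in mitochondrial counts). The female Corexit 9500 mice also lay wholly below saline, at 3.40 to 3.77 CPM (log2 fold change -1.61, SE 0.690), which did not pass. The oil group held 3.81, 5.15 and 85.7 CPM, and the last value, 1458 counts, came from a library with 22.56% mitochondrial counts. The 9 B cell markers summed to 224 to 314 CPM in the female oil mice and to 262 to 420 CPM in female saline mice.

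Over both sexes, with sex in the model, no chemokine passed the adjusted threshold against saline. Over all genes, 0.0326% did so for Corexit 9527, against 0% for oil, Corexit 9500 and both mixtures. The unadjusted threshold was passed by 3 of 9 chemokines with 9500+oil (0.418% of all genes), 1 of 10 with 9527+oil (2.99%), and none with oil (0.442%), Corexit 9500 (2.3%) or Corexit 9527 (2.86%). The 3 with 9500+oil were Cxcl1 at -1.17 (SE 0.530), Cxcl3 at -2.38 (SE 0.966) and Cxcl5 at -3.02 on the log2 scale. That count was 0 without female 9500+oil mouse 13, 14 or 15 and 1 without female saline mouse 2, male saline mouse 1 or male 9500+oil mouse 15. The count with 9527+oil was 0 without female saline mouse 2, male saline mouse 1 or any 1 of the female 9527+oil mice, and 2 without male saline mouse 3. With 1 mouse left out it reached 2 with oil, 1 with Corexit 9500 and 2 with Corexit 9527. With all mice Cxcl15 did not pass with Corexit 9527 (log2 fold change 0.42, SE 0.356). Without the 4 libraries high in mitochondrial counts it passed (0.53, edgeR adjusted p = 0.0172), and it also passed under voom. Those 2 fits called 331 of 15531 and 796 of 15328 genes, against 5 of 15328 in the main fit.

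The dispersants were compared with each other and with their own mixtures with oil, 6 mice against 6. The largest set of differences lay between 9527+oil and Corexit 9527, where 9 of 10 chemokines had lower values with the mixture. Cxcl15 had a log2 fold change of -0.91 (SE 0.266), Cxcl10 of -1.75 (SE 0.540), Cxcl9 of -1.73 (SE 0.611) and Cxcl1 of -1.81 (SE 0.708). Cxcl14 had the opposite sign, at 0.60 (SE 0.264). The edgeR adjusted p values were 0.193 to 0.342, and none passed, where 0.559% of all genes did. At an unadjusted p of 0.05, 14.1% of all genes passed, and 5 of 10 chemokines.

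For Cxcl15 this comparison set 954 to 1001 CPM (9527+oil) against 1400 to 3962 CPM (Corexit 9527) in female mice. In male mice it set 1025 to 1602 CPM against 1767 to 2120 CPM. The groups did not overlap in either sex. Without the 4 libraries high in mitochondrial counts, which include the Corexit 9527 mouse at 3962 CPM, the log2 fold change was -0.60 with an edgeR adjusted p of 0.0105. DESeq2 and voom each called Cxcl10 and Cxcl15 with all mice. The 0.559% of all genes given above holds for edgeR with all mice and not for these other fits. The sizes for Cxcl1, Cxcl9 and Cxcl10 rest in part on the high female Corexit 9527 mouse 10. Without that mouse the log2 fold change was -1.03 for Cxcl1 and -0.99 for Cxcl9, and that of Cxcl10 was nearly the same as these. Over both sexes, 13 of 13 macrophage markers were lower with 9527+oil than with Corexit 9527 (median log2 fold change -0.34) and 12 of 13 neutrophil markers were higher (0.94), although the neutrophil sums overlapped in both sexes. The 8 endothelial markers summed to 4104 to 4692 CPM with 9527+oil against 2637 to 3138 CPM with Corexit 9527 in female mice, and to 4519 to 4699 against 3795 to 4252 CPM in male mice. The airway markers (20990 to 23950 against 15790 to 19160 CPM) and the fibroblast and mesothelial markers (2739 to 2918 against 3389 to 3902 CPM) were apart in male mice, and the heart muscle markers (401 to 459 against 146 to 332 CPM) in female mice. The part of these cells was not tested.

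Between Corexit 9527 and Corexit 9500, 9 of 10 chemokines had higher values with Corexit 9527. Cxcl9 had the smallest p, with a log2 fold change of 1.36 (SE 0.503), which did not pass and was 0.72 without female Corexit 9527 mouse 10. This was the only chemokine at an unadjusted p of 0.05, where 3.33% of all genes passed and 0% passed the adjusted threshold. Between 9500+oil and Corexit 9500, Cxcl1 (-1.12, SE 0.440) and Cxcl3 (-1.95, SE 0.806) passed the unadjusted threshold. These are 2 of 8 tested, where 1.95% of all genes passed, and 0% passed the adjusted threshold. With 1 mouse left out the count ran from 1 to 4 for the first of these comparisons, with 4 without female Corexit 9527 mouse 12, and from 1 to 3 for the second. For 9527+oil against Corexit 9527 it ran from 3 to 6.

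**Figure D4:**
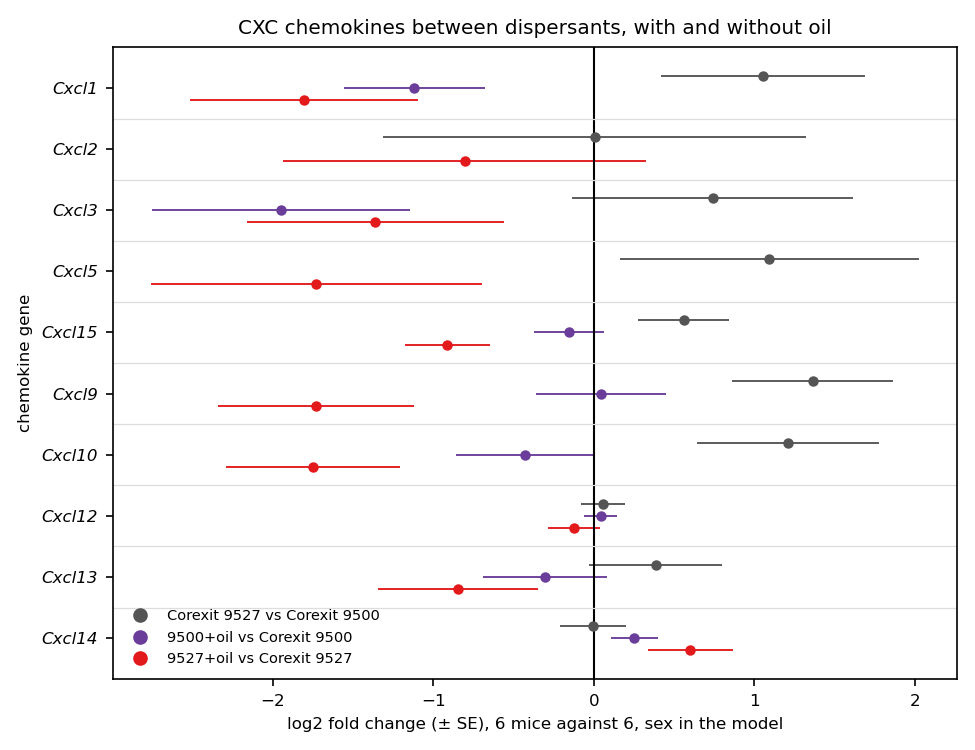
Log2 fold change (horizontal axis, points with SE bars) of each chemokine between Corexit 9527 and Corexit 9500, and between each mixture with oil and its dispersant alone, over 6 mice against 6 with sex in the model. Points for 9527+oil against Corexit 9527 lie below 0 for 9 of 10 genes, with Cxcl14 at 0.60 as the exception.

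The sexes were compared by the interaction of sex and treatment. For oil, the male minus the female log2 fold change was 3.96 for Cxcl9 (SE 1.02), 4.66 for Cxcl3 (SE 1.67), 2.21 for Cxcl1 (SE 0.726) and 1.89 for Cxcl10 (SE 0.797). For 9527+oil the difference was 4.04 for Cxcl9 (SE 1.05), 2.90 for Cxcl13 (SE 0.770) and 2.53 for Cxcl1 (SE 0.781). None passed after adjustment over all genes (edgeR adjusted p of 0.948 or more), and 0% of all genes passed in any of the 5 interactions. At an unadjusted p of 0.05, 4 of 9 chemokines passed for oil (1.65% of all genes), 2 of 9 for Corexit 9500 (0.726%), 0 of 10 for Corexit 9527 (0.352%), 3 of 9 for 9500+oil (0.509%) and 5 of 10 for 9527+oil (2.39%). With 1 mouse left out the count for 9500+oil ran from 1 (without female mouse 13, male mouse 14 or male saline mouse 2 or 3) to 4, and that for 9527+oil from 3 (without female mouse 17 or male saline mouse 3) to 7 (without female saline mouse 1). For oil it ran from 3 to 5, for Corexit 9500 from 2 to 3 and for Corexit 9527 from 0 to 2. Without the 4 libraries high in mitochondrial counts the oil difference of Cxcl9 was 2.89 and that of Cxcl3 3.97, which was 7.53 without male saline mouse 1, and the 9527+oil differences of Cxcl9 and Cxcl13 were 2.78 and 2.03. Those of Corexit 9500 were 1.47 for Cxcl9 and 1.30 for Cxcl13. DESeq2 called none, and voom called Cxcl3 and Cxcl9 for oil, where it called 85 of 15376 genes. The 5 interactions share the same saline mice, in which Cxcl9 was 5.52 to 37.0 CPM in female and 0.677 to 0.945 CPM in male mice.

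Receptors and inducers of these chemokines were read from lists of genes. Of the 15 receptors and other CXC ligands, 11 to 14 were tested in each comparison and none passed the adjusted threshold. In male oil mice Cxcr2, the receptor for the neutrophil-attracting members, had an edgeR adjusted p of 0.508 and Ppbp, a platelet CXC chemokine, one of 0.319, with a log2 fold change of -0.54 (SE 0.136). Mean levels of Cxcr3, the receptor for Cxcl9 and Cxcl10, were 2.11 to 3.52 CPM over the female and 2.71 to 4.74 CPM over the male groups. Cxcr4, the receptor for Cxcl12, had means of 82.8 to 141 CPM and 69.1 to 81.0 CPM.

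Of 25 genes of the IL-17, IL-1, TNF and NF-kB pathways, 21 were tested and none passed the adjusted threshold in any comparison. At an unadjusted p of 0.05, 4 were higher in male oil mice and 5 in male Corexit 9527 mice, beside 8.21% and 13.7% of all genes in either direction. None passed in female mice in any comparison with saline, where the share of all genes was 0.108% to 1.1%. Il1rn, which encodes the IL-1 receptor antagonist, had the smallest p in both of those male comparisons, with log2 fold changes of 1.23 (SE 0.266, edgeR adjusted p = 0.273) and 0.87 (SE 0.218, edgeR adjusted p = 0.153). Of 22 interferon inducers and responders, none passed the adjusted threshold. In male oil mice 3 of 21 were higher at an unadjusted p of 0.05, led by Irf7 (0.85, SE 0.213), and in male Corexit 9527 mice 2 of 21 were lower, Irf1 (-0.30, SE 0.101) and Irf9 (-0.25, SE 0.105). The shares of all genes in these 2 comparisons were again 8.21% and 13.7%. The mean level of Ifng, the inducer of Cxcl9, was 0.141 to 0.505 CPM in every female and 0.169 to 0.434 CPM in every male group. Of 11 organisers of lymphoid tissue, 8 to 10 were tested and none passed.

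The chemokines were also compared across the 18 mice of each sex, where 81 pairs were correlated on log2 CPM (45 among female mice and 36 among male mice, in which Cxcl2 was too low). After adjustment over the pairs, Pearson's r passed in 12 female and 7 male pairs, with permutation p values. The highest Pearson's r was that of Cxcl1 and Cxcl10 in female mice, with r = 0.94 and rho = 0.86 (p = 1e-05, the smallest the permutations can give, adjusted p = 0.00081). In male mice r was 0.69 and rho 0.61 (permutation p = 0.0020, adjusted p = 0.0184). Without the 2 mice farthest from the median of Cxcl1, r was 0.87 in female and 0.39 in male mice. Leaving out the extremes of 1 gene narrows its range, which can by itself lower r. For deviations from the group means r was 0.91 and 0.69, and among the 14 female mice without the 4 set-apart libraries it was 0.95.

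Cxcl9 and Cxcl10 gave r = 0.78 and rho = 0.78 in female mice (permutation p = 0.00023, adjusted p = 0.00621). In male mice r was 0.61 and rho 0.56 (permutation p = 0.0069, adjusted p = 0.0325). Within groups r was 0.70 in female and 0.21 in male mice, and without the 2 farthest mice it was 0.71 and 0.42. Thus in male mice the relation lay largely between groups. Cxcl3 and Cxcl10 gave r = 0.64 and rho = 0.62 in female mice (permutation p = 0.0040, adjusted p = 0.0230) and r = 0.69 and rho = 0.66 in male mice (permutation p = 0.00092, adjusted p = 0.0124). This was the highest male r. Their within-group r was 0.62 and 0.65, and without the 2 farthest mice it was 0.59 and 0.75.

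The highest rho was that of Cxcl9 and Cxcl13 in female mice, at 0.88 with r = 0.68 (permutation p of r = 0.0022, adjusted p = 0.0184), with an r of 0.54 within groups and 0.74 without the 2 farthest mice. In male mice r was 0.36 and rho 0.33 (permutation p = 0.14, adjusted p = 0.289).

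Cxcl14 and Cxcl15 were the only pair with a negative r that passed, and only in female mice. There r was -0.79 and rho -0.81 (permutation p = 6e-05, adjusted p = 0.00243), with -0.77 within groups, -0.66 without the 2 farthest mice and -0.71 without the 4 set-apart libraries. In male mice r was 0.26 and rho 0.24 (permutation p = 0.29, adjusted p = 0.456), and 0.72 within groups. Whether the sexes differ in this relation was not tested. Cxcl12 gave r between -0.28 and 0.28 with Cxcl13, Cxcl14 and Cxcl15 in both sexes, and none of these pairs passed.

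**Figure D5:**
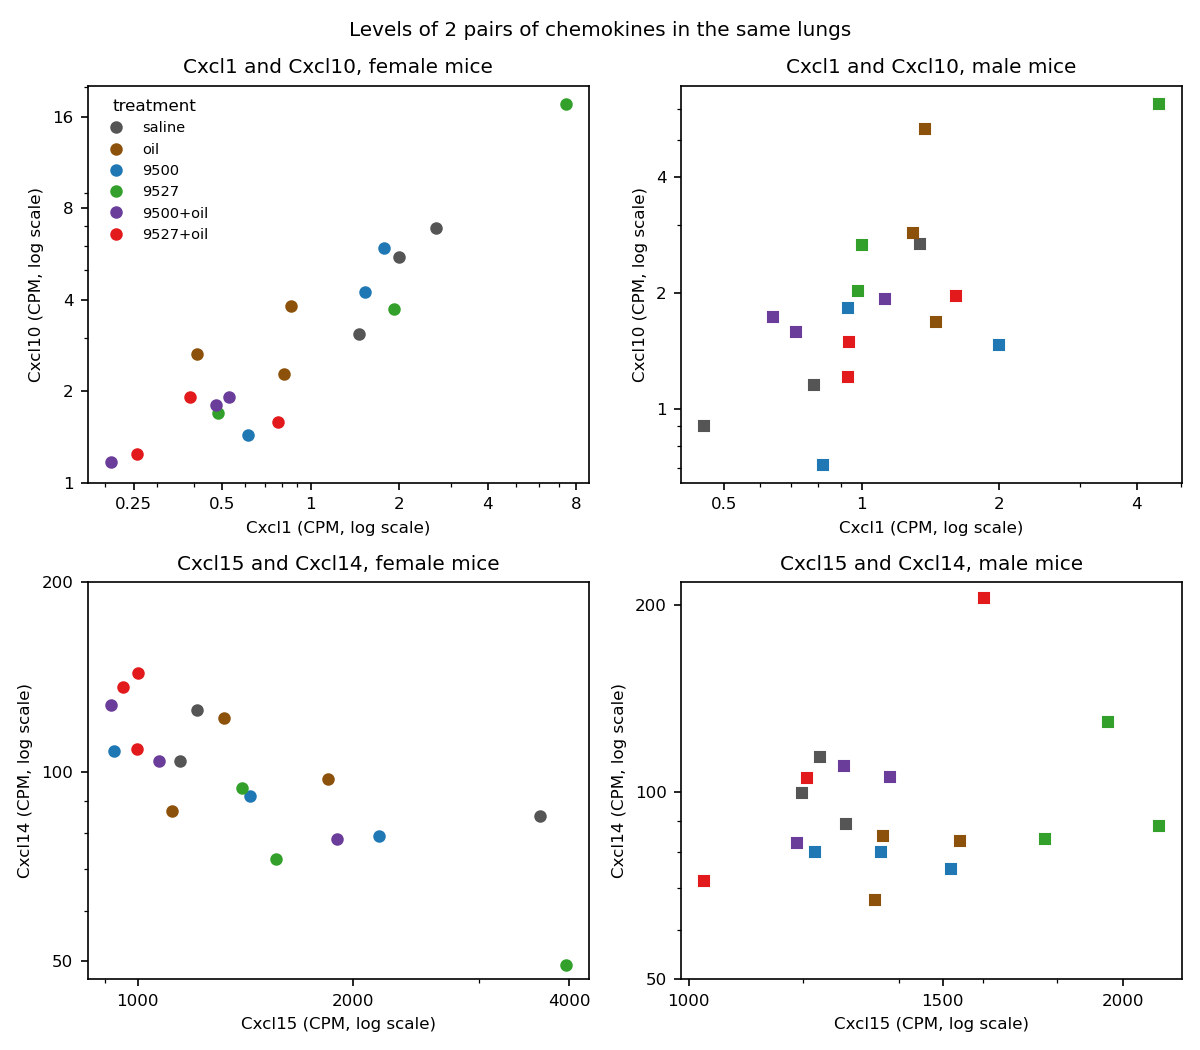
Levels of Cxcl1 and Cxcl10 (top) and of Cxcl15 and Cxcl14 (bottom) in the same lungs, in CPM on log axes, with 1 point per mouse coloured by treatment. Cxcl1 and Cxcl10 go together with r = 0.94 in female and 0.69 in male mice, and Cxcl14 is lower where Cxcl15 is higher in female mice (r = -0.79) but not in male mice (r = 0.26).

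Across 15250 genes, the 2 most like each chemokine were named by the lower of their r in the 2 sexes, over 18 mice each. Cxcl2 passed the filter in the female table only and has no such genes. Cxcl1 was closest to Ccl2, a CC chemokine for monocytes, with r = 0.85 in female and 0.87 in male mice, and then to Gatm (0.71 and 0.73). Cxcl10 was closest to Slc26a4 (0.79 and 0.76) and, like Cxcl1, to Ccl2 (0.88 and 0.74). Cxcl3 was closest to Saa3, an acute-phase gene (0.76 and 0.77), and Ptpn7 (0.70 and 0.73). Cxcl9 was closest to Slc6a20a (0.68 and 0.74) and Ccl11, the eosinophil attractant eotaxin (0.66 and 0.66). Cxcl15 was closest to Acsl4, which activates long-chain fatty acids (0.94 and 0.88), and Snx7 (0.87 and 0.87). Cxcl14 was closest to Ugt1a6a (0.78 and 0.78) and Igfbp5 (0.74 and 0.77). For Cxcl12 the closest, Tnfsf11 (0.55 and 0.56) and Slc7a1 (0.53 and 0.66), reached lower values. Cxcl13 was closest to Syt14 (0.65 and 0.63) and Slc11a2 (0.67 and 0.59), and Cxcl5 to Naa25 (0.71 and 0.71) and Nol9 (0.72 and 0.69).

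Part of these likenesses came with the 4 set-apart libraries. Without them the female r was -0.05 for Cxcl13 and Syt14, -0.03 for Cxcl13 and Slc11a2, 0.47 for Cxcl5 and Naa25 and 0.40 for Cxcl5 and Nol9. It was 0.77 for Cxcl15 and Acsl4, 0.57 for Cxcl15 and Snx7, 0.59 for Cxcl14 and Ugt1a6a and 0.49 for Cxcl3 and Ptpn7. For Cxcl1 and Ccl2 it was 0.84, and for Cxcl10 and Ccl2 0.91. These likenesses describe the same libraries and are not tests.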

How the data were processed

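Left lung RNA (stranded mRNA libraries) of 36 mice was sequenced, and the authors estimated transcript abundance with Salmon on GRCm38 and built a count matrix with tximport. The deposited values are expected counts per gene symbol, given as whole numbers, in 1 table per sex. Mice were assigned to groups by their sample labels. From either table, 4 rows that share a name were left out (0.0103% and 0.0128% of counts). Genes that pass filterByExpr were tested with edgeR 4.0.16 (TMM, quasi-likelihood F-test, R 4.3.3), with Benjamini-Hochberg adjustment over all genes tested. Fits held the groups compared, with sex as a covariate where both sexes entered. The study used DESeq2 (here version 1.42.0, an alternative). Other alternatives were voom (limma 3.58.1), other scaling and filters, all groups in 1 fit, no sex term, the 4 libraries over 20% mitochondrial counts left out, and each mouse left out. Log2 CPM used a prior count of 2. Correlations used 100000 permutations, 2-sided. Scripts were tested on simulated data. A further motif searched is not reported here. The members and the gene lists were chosen with earlier results of these data known. All 10 members are named, with the 2 genes most like each member tested in both sexes. List genes are named from the 2 smallest p values of a list in a comparison, and not every such gene is named. Mice of a group are separate animals, and the sexes were treated separately.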

Additional observations from a re-analysis of the deposited data

Results flagged for a closer look

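The interaction of sex and treatment had an unadjusted p under 0.05 for 14 chemokine results, in each of which the male minus the female log2 fold change against saline was positive. In several the larger change was a lower level in female mice, as for Cxcl1 with 9500+oil (-0.06 in male and -2.38 in female mice) and Cxcl10 with 9527+oil (-0.02 and -1.71). None passed after adjustment over all genes in edgeR's test, with adjusted p values of 0.948 to 1.00. For oil the differences on the log2 scale were 2.21 for Cxcl1, 1.89 for Cxcl10, 4.66 for Cxcl3 and 3.96 for Cxcl9. For Corexit 9500 they were 2.18 for Cxcl13 and 2.75 for Cxcl9. For 9500+oil they were 2.26 for Cxcl1, 1.79 for Cxcl10 and 2.56 for Cxcl9. For 9527+oil they were 2.53 for Cxcl1, 1.68 for Cxcl10, 2.90 for Cxcl13, 4.49 for Cxcl2 and 4.04 for Cxcl9. Cxcl2 had 0 to 24 counts in the mice of that comparison. The 4 sets of differences share the saline mice of each sex, and the sexes were treated separately, so that sex and round of treatment cannot be told apart. Female saline mouse 3 carries much of the Cxcl9 values, which without it were 2.67 for oil, 1.47 for Corexit 9500, 1.33 for 9500+oil and 2.78 for 9527+oil. Without the same mouse Cxcl13 was 1.30 for Corexit 9500. The oil value of Cxcl3 was 7.53 without male saline mouse 1, and the 9527+oil value of Cxcl2 was 3.23 without female saline mouse 2. No test for a mouse that stands apart was run in groups of 3.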

How the results depend on the processing

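No paired analysis was possible because the groups compared within a table share no mouse numbers. No fold change of a single chemokine that was recomputed changed sign. The median over the chemokines, which is not used above, did so for Corexit 9527 over both sexes (0.37, and -0.06 with no sex term), for Corexit 9527 in female mice (-0.55, and 0.12 without the 4 libraries high in mitochondrial counts) and for oil over both sexes (-0.17, and 0.13 without those libraries), and in several smaller cases. The number of chemokines past the adjusted threshold was 0 in 24 of 25 comparisons and moved in 6. With DESeq2 it was 1 for oil in male mice, 2 for Corexit 9527 in male mice, 2 for 9527+oil against Corexit 9527 and 2 for any difference among male groups. DESeq2 called 186 of 14903 and 587 of 14908 genes in the first 2 of these comparisons, against 1 and 17 genes with edgeR. With voom it was 1 for Corexit 9527 in male mice, 1 for Corexit 9527 over both sexes, 2 for the interaction of sex and oil, 2 for 9527+oil against Corexit 9527 and 0, in place of 1, for any difference among male groups. For Corexit 9527 in male mice the number of chemokines was also 1 with no filter on low counts and 1 with at least 10 counts in every mouse. It was 2 with all groups in 1 fit. These settings called 70 of 18178, 89 of 14023 and 284 of 15519 genes. Without the 4 libraries high in mitochondrial counts the number of chemokines was 1 for Corexit 9527 over both sexes and 1 for 9527+oil against Corexit 9527. In the first of these, 331 of 15531 genes passed. With 1 mouse left out the number of chemokines ran from 0 to 1 for Corexit 9527 in male mice (1 without Corexit 9527 mouse 12). It ran from 0 to 1 for 9527+oil against Corexit 9527 (1 without female Corexit 9527 mouse 11). For any difference among male groups it ran from 0 to 2 (2 without 9527+oil mouse 16). The cause was not tested. The low counts of Cxcl2, Cxcl3 and Cxcl5 limit what could be compared.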
